A study of Homo sapiens with 20 samples.

Results

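Surface genes of plasma cells and multiple myeloma were followed, several of which encode targets of antibodies or engineered T cells in the clinic. They were TNFRSF17, TNFRSF13B, SDC1, CD44, CD38, SLAMF7, CD28, GPRC5D, CD47 and FCRL5, that is 10 of the 19617 genes in the tables, and each was represented by the transcript with the most reads over all libraries. The cells were MM1.S, an established human multiple myeloma line of wild-type genotype. They were treated with 10 nM dCBP-30, a bifunctional molecule that sends the histone acetyltransferases CBP and p300 to the proteasome through cereblon, or with DMSO as the vehicle, for 2, 6 or 24 h. Each of these 6 groups had 3 libraries, and 1 h before harvest all of those cells received 4-thiouridine (4sU), a uridine analogue that enters RNA as it is made. A further 2 libraries came from MM1.S cells without 4sU. The design shows how a single line of myeloma cells responded, and nothing in the labels says whether the 3 libraries of a group came from separate cultures, so the p-values measure the spread between these libraries.

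In SLAM-seq, alkylated 4sU is read as C in place of T. A read with such a conversion (a T>C read) comes mostly from RNA made during the labelling, while the total reads of a gene also count the older RNA still present. The labelled share is the percentage of a gene's reads that are T>C reads. CBP and p300 acetylate histones at enhancers and promoters, and genes that define a cell's identity often lie near large clusters of enhancers.

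The 10 genes belong to several families. TNFRSF17 encodes BCMA and TNFRSF13B encodes TACI, both receptors for the survival ligands APRIL and BAFF. SDC1 encodes CD138, the heparan sulphate proteoglycan by which plasma cells are sorted, and CD44 is a receptor for hyaluronan. CD38 is an ectoenzyme that consumes NAD and is the target of daratumumab, SLAMF7 is a self-binding receptor of the SLAM family targeted by elotuzumab, and CD28 is a co-stimulatory receptor better known from T cells. GPRC5D is an orphan G protein-coupled receptor, FCRL5 is an Fc receptor-like protein, and CD47 is a nearly ubiquitous ligand of SIRPA on macrophages.

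The 20 libraries held 12440706 to 18729083 reads on genes. Without 4sU 0.801% ± 0.0107 (SD, n = 2) of them were T>C reads, and in DMSO at 2 h 6.08% ± 0.0776 (SD, n = 3). With dCBP-30 it was 5.54% ± 0.138 at 2 h, and at 6 h 4.98% ± 0.284 against 6.38% ± 0.182 in DMSO (SD, n = 3 each). At 24 h the share was 6.38% ± 0.475 with dCBP-30 and 8.31% ± 0.266 with DMSO (SD, n = 3 each), and a T>C read then carried 1.47 ± 0.0432 conversions with dCBP-30 and 2.48 ± 0.0254 with DMSO. Pooled over all genes, the percentage of T>C reads was thus lower with dCBP-30 at all 3 times. The median gene's odds of a T>C read hardly differed between the groups at 2 h (log2 difference 0.02). By 6 h this median difference had become -0.34, and by 24 h -0.79. The part of the lower pooled percentage in the values of single genes was not tested. The 8 plasma cell markers looked up, TNFRSF17 and SDC1 among them, summed to 5061 to 6311 reads per 1000000 reads (RPM) in the DMSO libraries and to 609 to 4564 in the dCBP-30 libraries.

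Reads were counted over 3′ UTRs of hg38, and no member's UTR overlapped that of another counted gene. The counted UTRs lay at chr16:11967848-11968068 for TNFRSF17, chr17:16939081-16939546 for TNFRSF13B, chr2:20200797-20202765 for SDC1, chr11:35229334-35232402 for CD44 and chr4:15848603-15853232 for CD38. Those of the other members were chr1:160753165-160754821 for SLAMF7, chr2:203734913-203738912 for CD28, chr12:12940575-12940774 for GPRC5D, chr3:108043091-108047287 for CD47 and chr1:157513377-157515674 for FCRL5. The UTRs of GPRC5D and TNFRSF13B offered few positions where a conversion can be seen, with 36 T in 200 bases and 40 T in 466 bases. The UTR of CD28 held 1212 T in 4000 bases.

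The promoters differed widely in CpG content, and 3 are shown because they belong to the gene whose new RNA fell the most at 2 h (CD28), to the gene with the most reads (SDC1) and to the gene that changed the least (CD47). They are the 250 bases before the annotated start in RefSeq on GRCh38.p14, written 5′ to 3′ on the strand of the gene, with each CG dinucleotide in capitals. CD28 lies on the plus strand at chr2:203706389-203706638, SDC1 on the minus strand at chr2:20225476-20225725 and CD47 on the minus strand at chr3:108091032-108091281.
CD28: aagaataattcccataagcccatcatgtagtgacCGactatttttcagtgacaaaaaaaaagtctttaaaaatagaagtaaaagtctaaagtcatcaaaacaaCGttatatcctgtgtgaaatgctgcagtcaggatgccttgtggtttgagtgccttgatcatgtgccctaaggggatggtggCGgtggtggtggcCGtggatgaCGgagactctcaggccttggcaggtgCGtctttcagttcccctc
SDC1: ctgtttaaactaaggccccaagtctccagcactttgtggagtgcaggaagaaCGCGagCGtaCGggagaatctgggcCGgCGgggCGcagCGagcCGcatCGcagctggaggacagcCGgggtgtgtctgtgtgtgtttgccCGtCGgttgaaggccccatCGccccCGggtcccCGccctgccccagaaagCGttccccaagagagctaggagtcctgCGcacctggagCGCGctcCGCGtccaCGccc
CD47: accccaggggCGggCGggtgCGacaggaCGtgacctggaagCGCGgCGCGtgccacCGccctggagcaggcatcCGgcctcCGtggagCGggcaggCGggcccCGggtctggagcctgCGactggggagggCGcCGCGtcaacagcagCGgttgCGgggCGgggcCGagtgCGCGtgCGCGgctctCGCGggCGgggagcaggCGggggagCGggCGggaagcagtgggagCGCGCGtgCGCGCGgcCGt
The CD47 window held 39 CG dinucleotides, more than 97.3% of the 35116 promoters in the table, whose median was 11. CD28 held 6, CD38 and FCRL5 3 each, GPRC5D 4, TNFRSF13B 5 and CD44 15. SDC1, with 23 in the window shown and 21 in that of a second start site, also lay above the median. TNFRSF17 and SLAMF7 had no entry. Of 5 motifs looked for on both strands, TATAAA was found in GPRC5D, as in 10.7% of all promoters, and the MAF motif TGCTGA in CD44 and GPRC5D, as in 14.0% of all promoters. The E-box CACGTG (6.34% of all promoters), the IRF motif of 2 GAAA runs with 2 bases between them (3.02%) and the MEF2 core (2.36%) were in none of the 9 member windows.

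New RNA of most of these genes fell within 2 h of dCBP-30, and by more than their total RNA did. At 2 h, 8 of the 9 members with enough T>C reads to be tested fell more than 2-fold in edgeR's quasi-likelihood test with an adjusted p under 0.05, and CD47 did not. That compares with 7.14% of the 10086 genes tested that fell by the same rule. The median log2 change of the 9 members was -3.04, against 0.05 over all genes. In bulk RNA, fewer cells of a type and less RNA per cell cannot be told apart. At 6 h 7 of 9 fell (17.1% of all genes), with a median of -4.20 against -0.27, and at 24 h all 9 tested fell (31.2% of all genes), with a median of -3.07 against -0.69. The call for CD47 at 24 h was lost in 5 of the alternatives tried, and that for GPRC5D at 2 h in 3. FCRL5 had too few reads to be tested for T>C reads.

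Total reads of the members changed by less at 2 h than at 6 h. At 2 h none of the 10 members passed (1.25% of the 12272 genes tested fell), although all 10 estimates were below 0, and TNFRSF13B, TNFRSF17, SLAMF7, CD28, GPRC5D and FCRL5 had an unadjusted p from 0.00612 to 0.0297. By DESeq2 the count at 2 h was also 0. At 6 h 9 of 10 fell (8.67% of all genes) and at 24 h 8 of 10 (16.1% of all genes), the exceptions being CD47 at 6 h and CD47 and FCRL5 at 24 h. The medians without FCRL5 were -0.32, -2.11 and -2.71 at 2, 6 and 24 h, where all genes had -0.00076, 0.02 and 0.05. Without TMM factors CD38, GPRC5D and CD44 came within 2-fold at 6 h (-0.90, -0.90 and -0.93).

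**Figure D1:**
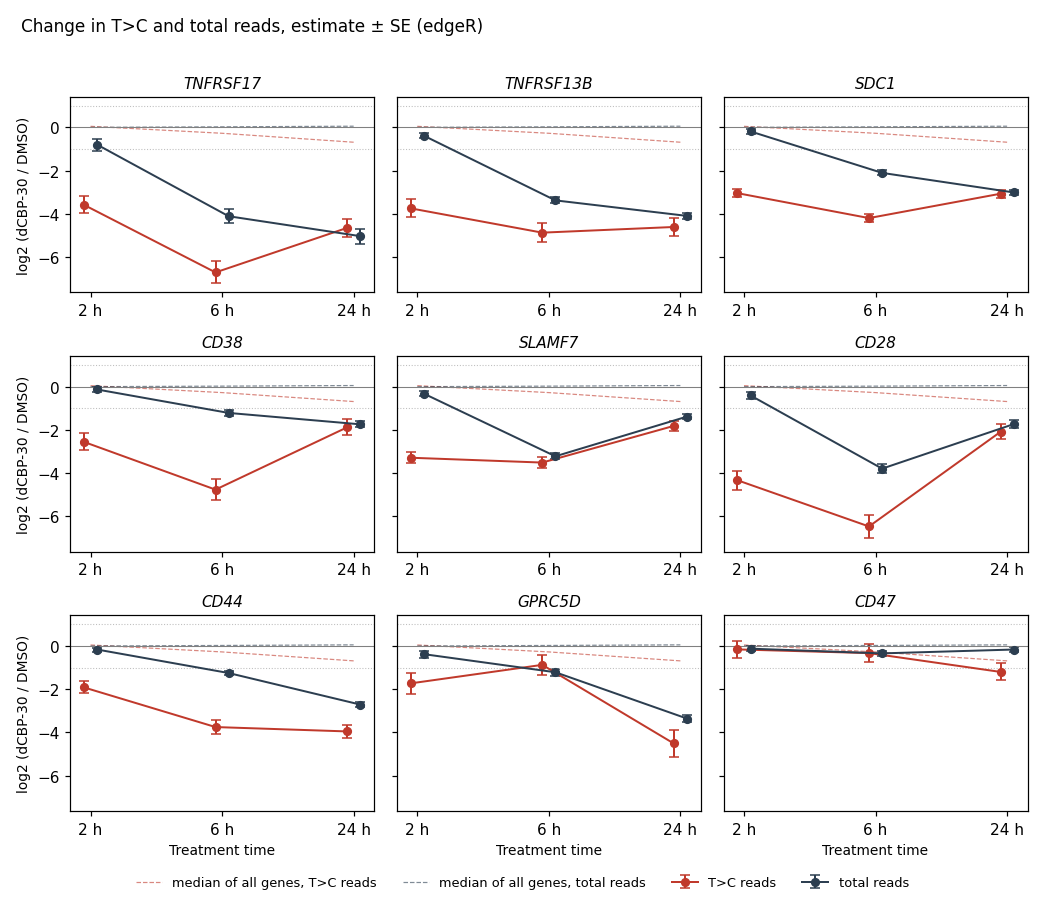
Log2 change (dCBP-30 over DMSO, vertical axis) of T>C reads in red and total reads in blue at 2, 6 and 24 h for the 9 members tested in both, as edgeR estimate ± SE from 3 libraries a group. Dashed lines give the median of all genes and dotted lines the 2-fold limits; in all panels but CD47 the red line lies more than 1 unit below the blue one at 2 h, and for CD28 and SLAMF7 both lines turn upwards from 6 to 24 h.

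New RNA of both receptors for APRIL and BAFF fell at all 3 times. For TNFRSF17 the T>C reads per 1000000 total reads of the library (T>C RPM, with library sizes scaled by TMM factors) were 15.2, 9.94 and 10.6 in the DMSO libraries at 2 h and 1.12, 0.396 and 1.44 with dCBP-30. At 6 h they were 12.2, 14.9 and 12.3 against 0.180, 0.111 and 0.0613, which rest on 3, 2 and 1 T>C reads. The groups did not overlap at any time, and the log2 changes were -3.59 ± 0.39 (SE), -6.71 ± 0.51 and -4.65 ± 0.41 at 2, 6 and 24 h (edgeR adjusted p = 5.17e-11, 5.27e-17 and 1.41e-14).

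The total reads of TNFRSF17 varied at 2 h, with 251, 196 and 155 RPM in DMSO against 103, 85.8 and 156 with dCBP-30, and the groups overlapped. At 6 h they were 132, 172 and 157 against 7.60, 13.7 and 5.21, and at 24 h 99.0, 151 and 168 against 5.69, 3.46 and 3.59. What was left of the BCMA transcript was thus 5.75% of the DMSO mean at 6 h and 3.05% at 24 h. The log2 changes of total reads were -0.80 ± 0.27, -4.11 ± 0.32 and -5.03 ± 0.34 (edgeR adjusted p = 0.116, 2.73e-09 and 1.70e-10). Without replicate 3 of dCBP-30 at 2 h, the 2 h change was -1.09 with an adjusted p of 0.0393.

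TNFRSF13B also fell at all 3 times. At 2 h the DMSO libraries held 13.2, 14.2 and 13.7 T>C RPM and the dCBP-30 libraries 1.12, 1.19 and 0.751, a log2 change of -3.75 ± 0.41 (edgeR adjusted p = 3.04e-10). Its labelled share with dCBP-30 at 2 h, 0.297% ± 0.0391 (SD, n = 3), was near the 0.253% seen without 4sU (95% Clopper-Pearson interval 0.168 to 0.365%). The T>C reads stayed low at 6 h (-4.87 ± 0.45) and 24 h (-4.61 ± 0.42), and the changes at the 3 times were not shown to differ from each other (edgeR adjusted p = 0.302 to 0.854 for the 3 pairs).

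Total reads of TNFRSF13B were 455, 449 and 434 RPM in DMSO at 2 h and 334, 398 and 291 with dCBP-30. They were 440, 378 and 400 against 29.4, 43.9 and 43.8 at 6 h, and 401, 368 and 385 against 23.6, 20.4 and 23.5 at 24 h. The groups were separate at all 3 times. The log2 changes were -0.39 ± 0.13, -3.38 ± 0.14 and -4.10 ± 0.15, of which the last was lower than that at 6 h by 0.72 ± 0.19 (edgeR adjusted p = 0.0043).

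**Figure D2:**
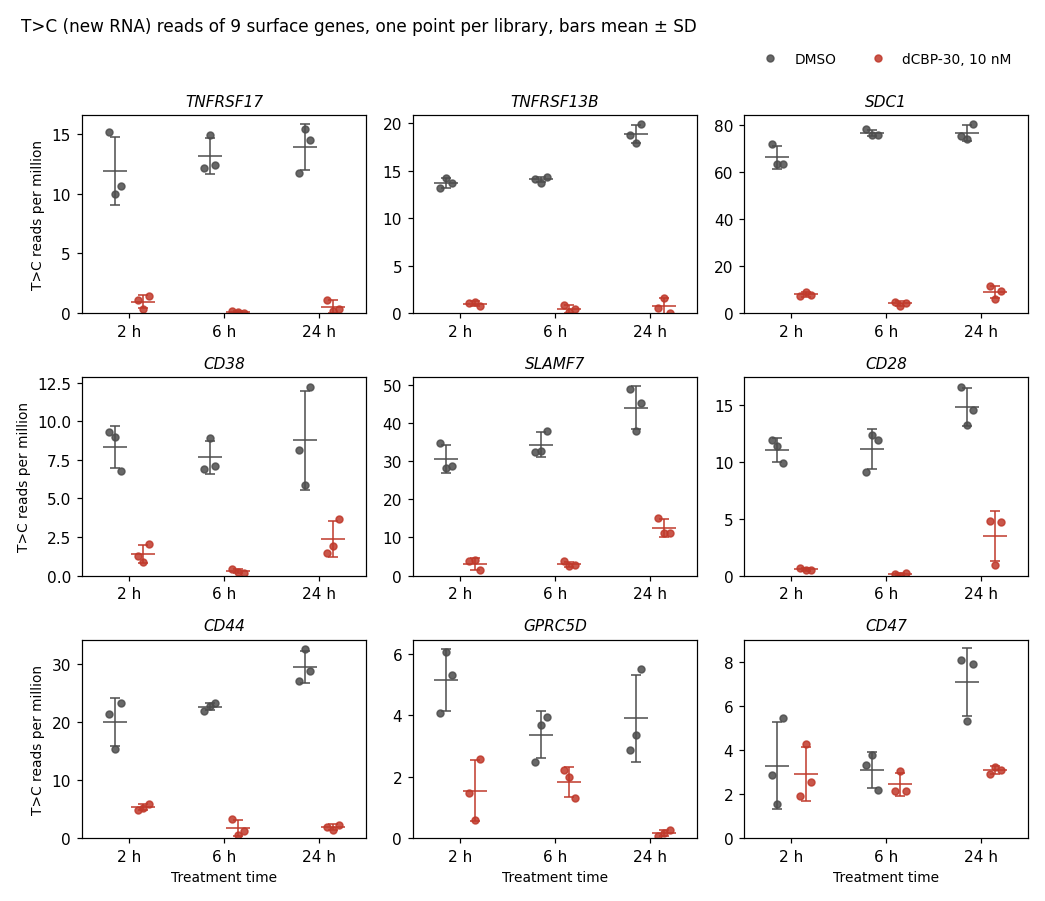
T>C RPM (vertical axis, linear from 0) of 9 surface genes in each library at 2, 6 and 24 h, DMSO in grey and dCBP-30 in red, with mean ± SD of 3 libraries. The red points lie below the grey ones at every time in all panels but CD47, where they overlap at 2 and 6 h.

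SDC1 had the most reads of the members, and the smallest SE of them in T>C reads. T>C RPM at 2 h were 72.0, 63.5 and 63.4 in DMSO and 7.25, 8.98 and 7.82 with dCBP-30. At 6 h they were 78.4, 76.0 and 75.8 against 5.03, 2.996 and 4.54, and at 24 h 75.6, 74.2 and 80.6 against 11.6, 6.26 and 9.55. The highest dCBP-30 library of all, at 24 h, remained below the lowest DMSO library by a wide margin. On the log2 scale SDC1 changed by -3.04 ± 0.19, -4.20 ± 0.20 and -3.07 ± 0.19 (edgeR adjusted p = 4.10e-20 at 2 h and 1.47e-25 at 6 h).

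While new SDC1 RNA was 12.1% of the DMSO mean at 2 h, total SDC1 reads were still 87.7% of it. They were 1272, 1410 and 1530 RPM in DMSO at 2 h and 1214, 1329 and 1150 with dCBP-30, and the groups overlapped. At 6 h they were 1782, 1422 and 1441 against 309.8, 370.1 and 398, and at 24 h 1245, 1140 and 1185 against 152, 132 and 159. Total reads thus declined to 23.2% and 12.4% of the DMSO mean, with log2 changes of -2.11 ± 0.12 and -3.01 ± 0.12 (edgeR adjusted p = 2.17e-13 and 2.04e-16). By 24 h the changes in new and total SDC1 RNA, -3.07 and -3.01, were about the same.

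The fall in new CD44 RNA was larger at 6 and 24 h than at 2 h. T>C RPM were 21.4, 15.4 and 23.3 in DMSO and 4.83, 5.21 and 5.82 with dCBP-30 at 2 h. They were 22.0, 22.8 and 23.3 against 3.29, 0.555 and 1.23 at 6 h, and 27.2, 32.7 and 28.8 against 1.97, 1.43 and 2.31 at 24 h. The log2 changes were -1.92 ± 0.27, -3.75 ± 0.31 and -3.95 ± 0.30, and the changes at 6 and 24 h were both larger than that at 2 h, by -1.83 ± 0.40 and -2.04 ± 0.40 (edgeR adjusted p = 0.00109 and 5.59e-05). With the reads expected without 4sU subtracted, these differences had an adjusted p of 0.280 and 0.461. Total CD44 reads were 89.2%, 42.0% and 15.3% of the DMSO means at 2, 6 and 24 h, with groups that did not overlap at any of them.

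CD44 and CD47 each also had a shorter annotated 3′ UTR that ends within the longer one. Reads in the shorter UTR of CD44 were 51.5% ± 1.85 of those in the longer one in DMSO at 2 h and 52.8% ± 0.850 with dCBP-30 (SD, n = 3 each). At 6 h these were 51.8% ± 1.73 and 59.1% ± 2.46, and the groups did not overlap, while at 2 and 24 h they did. Over the 3 times the mean difference was 3.69 percentage points for CD44 and 1.60 for CD47 (exact two-sided permutation test within times, unadjusted p = 0.024 and 0.0465 for the 2 genes tested).

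In CD38, SLAMF7 and CD28, and by less in SDC1, the loss of new RNA was smaller at 24 h than at 6 h. For CD38 the T>C RPM were 9.31, 8.96 and 6.80 in DMSO at 2 h and 1.29, 0.858 and 2.07 with dCBP-30. At 6 h they were 6.94, 8.92 and 7.12 against 0.419, 0.222 and 0.184, which rest on 7, 4 and 3 reads. At 24 h they were 8.16, 5.90 and 12.3 against 1.48, 1.92 and 3.70, still without overlap. This gave log2 changes of -2.56 ± 0.39, -4.76 ± 0.47 and -1.88 ± 0.37, and that at 24 h was less negative than that at 6 h by 2.88 ± 0.60 (edgeR adjusted p = 0.000357). Pooled over the dCBP-30 libraries at 6 h, 0.455% of CD38 reads were T>C reads (95% Clopper-Pearson interval 0.249 to 0.762%). Without 4sU it was 0.826% (0.558 to 1.18%), so the 6 h value was no higher than the background.

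The estimate for total CD38 reads was lower at 24 h than at 6 h. Total reads were 122, 131 and 135 RPM in DMSO and 120, 116 and 119 with dCBP-30 at 2 h, so that the groups lay close but apart. They were 137, 141 and 142 against 67.3, 61.0 and 52.3 at 6 h, and 108, 102 and 106 against 28.9, 24.8 and 40.7 at 24 h. The log2 changes were -0.13 ± 0.13, -1.22 ± 0.13 and -1.74 ± 0.14 (edgeR adjusted p = 0.688, 5.95e-08 and 6.59e-11). The step from 6 to 24 h, -0.53 ± 0.19, had an adjusted p of 0.0341, which rose to between 0.053 and 0.124 when any of 9 of the 12 libraries at these times was left out, and to 0.195 without TMM factors.

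SLAMF7 gave the same turn in both measures. T>C RPM were 34.7, 28.2 and 28.8 in DMSO and 3.88, 4.22 and 1.38 with dCBP-30 at 2 h, and 32.3, 32.7 and 38.0 against 3.71, 2.55 and 2.76 at 6 h. At 24 h they were 48.8, 37.7 and 45.2 against 15.1, 11.04 and 11.3, higher than in any dCBP-30 library of the earlier times. They correspond to log2 changes of -3.29 ± 0.25, -3.51 ± 0.25 and -1.81 ± 0.22 (edgeR adjusted p = 6.64e-17, 1.69e-18 and 4.23e-10). The change at 24 h was smaller than at 2 h by 1.47 ± 0.32 and than at 6 h by 1.70 ± 0.32 (edgeR adjusted p = 0.000309 and 7.16e-05), the second with an adjusted p of 0.114 once the reads expected without 4sU were subtracted.

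Total SLAMF7 RPM were 471, 491 and 507 in DMSO and 406, 321 and 447 with dCBP-30 at 2 h. They dropped at 6 h, with 468, 538 and 507 against 58.3, 48.7 and 55.3, and stood higher at 24 h, with 524, 451 and 472 against 187, 159 and 207. The dCBP-30 libraries therefore held 10.7% of the DMSO mean at 6 h and 38.3% at 24 h. The log2 changes were -3.22 ± 0.13 and -1.39 ± 0.12 (edgeR adjusted p = 5.28e-16 and 4.77e-10), which differed by 1.84 ± 0.17 (edgeR adjusted p = 5.20e-09). Without TMM factors the 24 h change was -0.87 and so within 2-fold, with an adjusted p of 9.98e-07.

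CD28 had the lowest log2 change of the members at 2 h and the largest step back towards DMSO from 6 to 24 h. At 2 h its T>C RPM were 11.9, 11.4 and 9.86 in DMSO and 0.690, 0.462 and 0.501 with dCBP-30, and its labelled share fell from 10.2% ± 1.15 to 0.677% ± 0.180 (SD, n = 3 each), where 0.688% was seen without 4sU (95% Clopper-Pearson interval 0.432 to 1.04%). At 6 h the T>C values were 9.13, 12.3 and 11.9 against 0.120, 0 and 0.245, from 2, 0 and 4 reads. At 24 h they were 16.6, 13.2 and 14.6 against 4.76, 0.934 and 4.72, with replicate 2 of dCBP-30 well below the other two. This gave log2 changes of -4.33 ± 0.43, -6.47 ± 0.52 and -2.09 ± 0.34 (edgeR adjusted p = 2.93e-12, 5.80e-16 and 1.08e-06).

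The CD28 change at 24 h was smaller than at 6 h by 4.38 ± 0.66 and than at 2 h by 2.24 ± 0.55 (edgeR adjusted p = 1.10e-06 and 0.00138). Total CD28 reads moved with it. They were 106, 111 and 110 RPM in DMSO and 78.0, 80.1 and 87.9 with dCBP-30 at 2 h, 105, 117 and 112 against 5.99, 9.49 and 8.64 at 6 h, and 111, 105 and 124 against 36.2, 21.4 and 44.4 at 24 h. All 3 pairs of groups were separate, and the log2 changes at 6 and 24 h, -3.79 ± 0.20 and -1.73 ± 0.18, differed by 2.06 ± 0.26 (edgeR adjusted p = 6.37e-07). The T cell markers CD3D, CD3E, CD3G and CD2 summed to 1.97 to 7.08 RPM in the DMSO libraries and 2.61 to 21.4 in the dCBP-30 libraries. Nearly all of this was CD3E, with 1.83 to 20.7 RPM over the 20 libraries. CD3D had no read in any of the 20, CD3G none in 17, and CD2 at most 0.996 RPM. The part of these markers in the CD28 values was not tested.

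**Figure D3:**
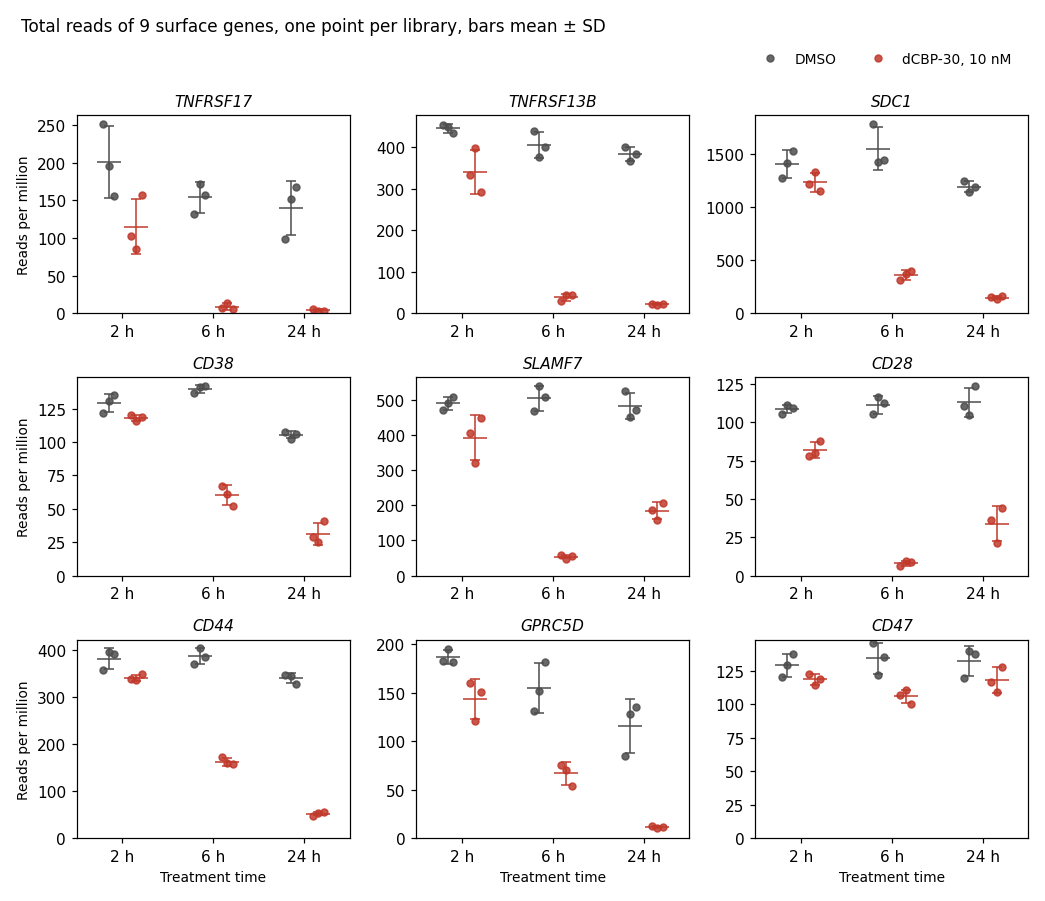
Total RPM (vertical axis, linear from 0) of the same 9 genes in each library at 2, 6 and 24 h, DMSO in grey and dCBP-30 in red, with mean ± SD of 3 libraries. Red points of SLAMF7 and CD28 are lowest at 6 h and higher at 24 h, those of the other fallen genes are lowest at 24 h, and those of CD47 stay near the grey points throughout.

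GPRC5D followed another course. Its T>C RPM were 4.08, 6.07 and 5.30 in DMSO and 1.47, 0.594 and 2.57 with dCBP-30 at 2 h, then 2.48, 3.69 and 3.93 against 2.22, 2.00 and 1.29 at 6 h. At 24 h they were 2.85, 3.34 and 5.51 against 0.0547, 0.165 and 0.268, from 1, 3 and 5 reads. The groups did not overlap at any time, but the log2 changes were -1.73 ± 0.48, -0.87 ± 0.47 and -4.51 ± 0.60 (edgeR adjusted p = 0.0091, 0.189 and 7.64e-09), so that only the first and the last passed. The change at 24 h was larger than at 2 h by -2.78 ± 0.77 and than at 6 h by -3.64 ± 0.77 (edgeR adjusted p = 0.00451 and 0.000422).

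The T>C reads of GPRC5D lay close to the background. Without 4sU 1.64% of its reads were T>C reads (95% Clopper-Pearson interval 1.29 to 2.06%), while DMSO libraries had 2.75% ± 0.460 (SD, n = 3) at 2 h and 2.16% ± 0.270 (SD, n = 3) at 6 h. The call at 2 h was lost without replicate 2 of dCBP-30 (-1.34, adjusted p = 0.105) or of DMSO (-1.59, adjusted p = 0.0508) and with reads summed over transcripts (-1.73, adjusted p = 0.0699), and the difference between 24 and 2 h was -0.18 after the background was subtracted. Its total reads do not depend on conversions. They were 183, 195 and 182 RPM in DMSO and 160, 120 and 151 with dCBP-30 at 2 h, 131, 151 and 182 against 75.8, 70.4 and 53.6 at 6 h, and 84.2, 128 and 135 against 12.2, 9.94 and 11.7 at 24 h. Total reads were 9.76% of the DMSO mean at 24 h, with log2 changes of -1.22 ± 0.16 and -3.36 ± 0.18 at 6 and 24 h (edgeR adjusted p = 1.39e-06 and 4.29e-14).

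CD47 stood apart from the rest in its small changes. T>C RPM were 2.85, 1.55 and 5.45 in DMSO and 1.90, 4.29 and 2.57 with dCBP-30 at 2 h, and 3.33, 3.75 and 2.17 against 2.16, 3.05 and 2.14 at 6 h, overlapping both times. The log2 changes were -0.16 (95% interval -0.96 to 0.64) and -0.33 (-1.13 to 0.47). A 2-fold fall in T>C reads thus lay outside the interval at 2 h and inside that at 6 h. Background made up much of these reads: 1.13% of CD47 reads were T>C reads without 4sU. The DMSO libraries averaged 2.51% at 2 h and 2.33% at 6 h. The interval at 2 h therefore does not exclude a 2-fold fall in new RNA. With the background subtracted, the 2 h estimate was -0.17 (edgeR adjusted p = 0.94). At 24 h the T>C RPM were 8.10, 5.31 and 7.90 against 2.90, 3.24 and 3.11, a log2 change of -1.20 ± 0.40 (edgeR adjusted p = 0.0119). That is the smallest change of the 9 at 24 h, where the median of all genes was -0.69, and it did not pass when scaled by T>C reads (-0.55, adjusted p = 0.321), without TMM factors (-0.68, adjusted p = 0.205), by DESeq2 with size factors from T>C reads (-0.45, adjusted p = 0.465), with the background subtracted (-1.67, adjusted p = 0.0526) or without replicate 1 of DMSO at 24 h (adjusted p = 0.0517).

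Total CD47 RPM were 120, 129 and 138 in DMSO and 123, 114 and 118 with dCBP-30 at 2 h. They were 146, 122 and 135 against 107, 110 and 100 at 6 h, and 119, 140 and 137 against 116, 109 and 128 at 24 h. The groups were separate at 6 h alone. On the log2 scale the estimates were -0.12 (95% interval -0.33 to 0.08), -0.34 (-0.55 to -0.13, edgeR adjusted p = 0.012) and -0.16 (-0.37 to 0.04, edgeR adjusted p = 0.184), of which the last turned to 0.36 without TMM factors (edgeR adjusted p = 0.00392). None reached 2-fold.

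FCRL5 was hardly sequenced in these cells, with 117 reads over the 20 libraries, and its values count single reads. The DMSO libraries at 2 h held 0, 1 and 11 reads, those at 6 h 4, 2 and 14 and those at 24 h 15, 0 and 5. None of the 6 dCBP-30 libraries at 2 and 6 h held a read, and those at 24 h held 24, 19 and 21. At 6 h total FCRL5 was at least 7.77-fold lower with dCBP-30, taking 3 counts over the group as the limit that a count of 0 allows (edgeR adjusted p = 0.0288). Replicate 3 of DMSO held 14 of the 20 reads, and without it the bound was 3.51-fold. That call was lost without replicate 3 of DMSO (adjusted p = 0.115) or any 1 of the dCBP-30 libraries at 6 h (adjusted p from 0.0624 to 0.0712), and at 2 and 24 h the adjusted p was 0.237 and 0.339.

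The labelled share sets new RNA against all RNA of the same gene and needs no scaling between libraries. At 2 h it was lower in 8 of 9 members (5.13% of all genes were lower by edgeR's test of the odds of a T>C read, adjusted p under 0.05), CD47 again excepted. The call for GPRC5D was lost without replicate 2 of dCBP-30 at 2 h (log2 odds -1.08, adjusted p = 0.0753), and limma on the log2 odds lost those for GPRC5D and TNFRSF13B (adjusted p = 0.0811 and 0.052). In those 8 genes the share was 6.66% to 37.7% of the DMSO mean. SDC1, for example, had 4.77% ± 0.793 in DMSO and 0.651% ± 0.0469 with dCBP-30 (SD, n = 3 each), where 0.444% was seen without 4sU (95% Clopper-Pearson interval 0.383 to 0.512%). A T>C read of SDC1 carried 1.95 conversions in DMSO and 1.26 with dCBP-30 at 2 h, pooled over libraries, against 1.01 without 4sU.

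At 6 h the share was lower in 5 of 9 members (6.86% of all genes), namely TNFRSF17, SDC1, CD38, CD44 and CD28. That of SLAMF7 was 6.82% ± 0.714 in DMSO and 5.53% ± 0.737 with dCBP-30 (SD, n = 3 each, log2 odds -0.32 ± 0.29, edgeR adjusted p = 0.613), since its new and total reads had dropped about equally. TNFRSF13B had 3.47% ± 0.226 and 1.43% ± 1.45 (log2 odds -1.51 ± 0.53, edgeR adjusted p = 0.0976), and without replicate 1 of dCBP-30 its log2 odds were -2.54 with an adjusted p of 0.0159. GPRC5D had 2.16% ± 0.270 and 2.72% ± 0.280 (log2 odds 0.35 ± 0.34, edgeR adjusted p = 0.642).

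At 24 h the share was lower in 2 of 9 members (25.6% of all genes), CD44 and CD47. CD44 had 8.72% ± 0.832 in DMSO and 3.67% ± 0.820 with dCBP-30 (SD, n = 3 each, log2 odds -1.32 ± 0.32, edgeR adjusted p = 0.00431). CD47 had 5.45% ± 1.52 and 2.63% ± 0.293 (log2 odds -1.06 ± 0.35, edgeR adjusted p = 0.0301), a call lost when any of 5 of the 6 libraries at 24 h was left out (adjusted p from 0.051 to 0.129). The median of all genes was -0.79 at this time, and 6 members lay above it, among them SDC1 at -0.09 ± 0.19 and CD38 at -0.15 ± 0.32. The shares of TNFRSF17, TNFRSF13B, SDC1, CD38 and CD28 overlapped between the groups at 24 h, although their total reads did not. Counted per T, TNFRSF17 and TNFRSF13B still overlapped, but SDC1, CD38 and CD28 did not. Their mean percentages of converted T were 0.426, 0.397 and 0.466 with dCBP-30 against 0.637, 0.851 and 1.35 with DMSO. Their T>C reads carried 1.55, 1.47 and 1.43 conversions with dCBP-30, pooled over libraries, against 2.20, 2.59 and 2.76. The part of this in the shares was not tested.

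The spread between libraries was wide for the rarest members at 24 h. TNFRSF17 had 21 T>C reads of 104 in replicate 1 of dCBP-30 (20.2%, 95% Clopper-Pearson interval 13.0 to 29.2%) and 3 of 63 in replicate 2 (4.76%, 0.993 to 13.3%). TNFRSF13B had 11 of 432, 30 of 371 and 1 of 438. Without replicate 2 of dCBP-30 at 24 h, the TNFRSF13B share fell by a log2 odds of -1.87 (adjusted p = 0.0192). These intervals cover counting error only, since reads are not independent molecules.

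**Figure D4:**
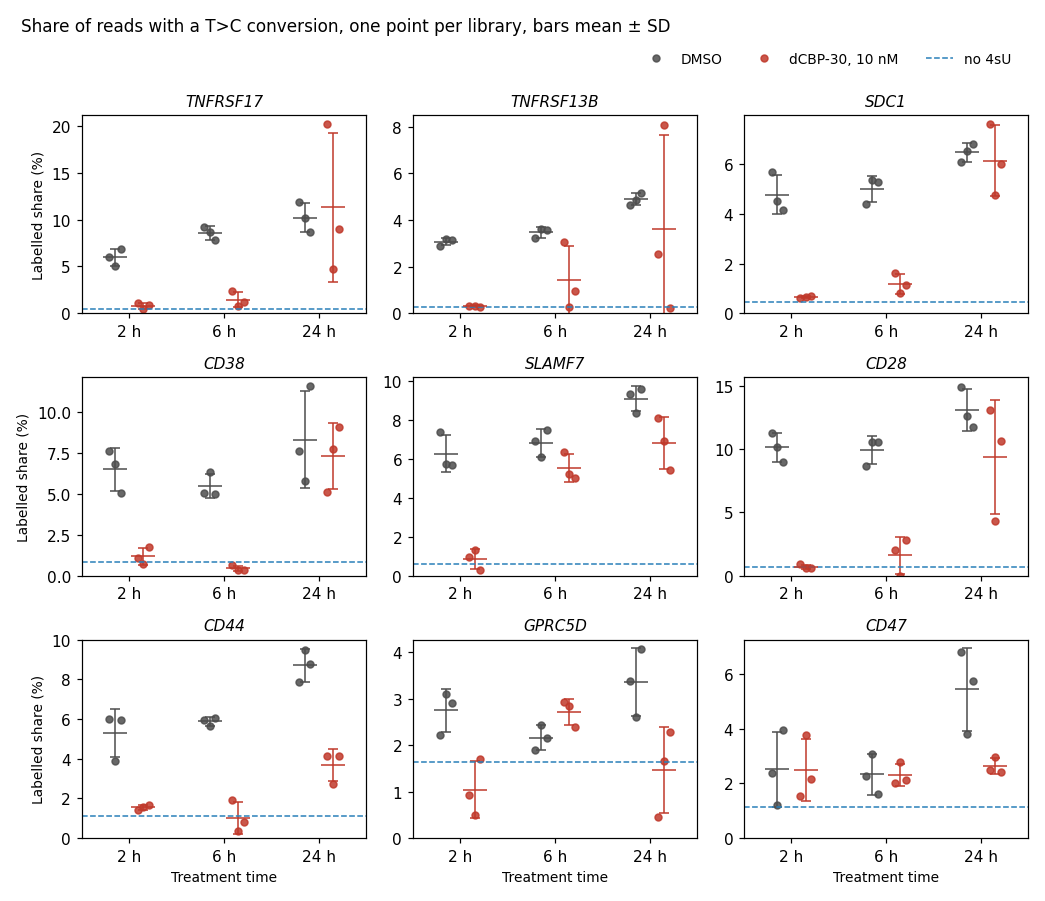
Labelled share (percent of a gene's reads that are T>C reads, vertical axis from 0) in each library at 2, 6 and 24 h, DMSO in grey and dCBP-30 in red, with mean ± SD of 3 libraries (bars are drawn down to 0 at most). The blue dashed line is the share without 4sU. At 2 h the red points of TNFRSF17, TNFRSF13B, SDC1, CD38, SLAMF7, CD28 and CD44 lie nearer to it than the grey ones. At 24 h the red and grey points overlap for TNFRSF17, TNFRSF13B, SDC1, CD38 and CD28.

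Whether the changes in T>C reads differed between times was tested as the difference of 2 log2 changes. From 2 to 6 h the fall deepened in 4 of 9 members (7.35% of all genes), TNFRSF17 by -3.12 ± 0.70, SDC1 by -1.15 ± 0.26, CD38 by -2.21 ± 0.62 and CD44 by -1.83 ± 0.40 (edgeR adjusted p = 0.00152, 0.00182, 0.0144 and 0.00109). From 2 to 24 h it deepened in GPRC5D and CD44 (23.0% of all genes) and became smaller in SLAMF7 and CD28 (3.02% of all genes). From 6 to 24 h, a comparison added after the data were seen, it deepened in GPRC5D (9.13% of all genes) and became smaller in SDC1, CD38, SLAMF7 and CD28 (2.93% of all genes), SDC1 by 1.13 ± 0.26 (edgeR adjusted p = 0.00137). TNFRSF17 gave 2.06 ± 0.73 with an adjusted p of 0.0539, and an adjusted p under 0.05 in 5 of the alternatives in scaling, tool or filter (0.0234 to 0.0484), but 0.93 with an adjusted p of 0.549 without replicate 1 of dCBP-30 at 24 h, from which 21 of 30 T>C reads came.

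Some of these differences rested on a single library or on the background. With the reads expected without 4sU subtracted, the difference between 6 and 2 h was -2.50 for TNFRSF17 and -0.23 for SDC1 (edgeR adjusted p = 0.116 and 0.804). That of CD38 was -1.79 without replicate 3 of dCBP-30 at 2 h (adjusted p = 0.102). Between 24 and 2 h TNFRSF17 had -1.06 with all libraries and -2.20 without replicate 1 of dCBP-30 at 24 h (adjusted p = 0.169 and 0.00641), and TNFRSF13B had -0.86 and, without replicate 2 of that group, -2.07 (adjusted p = 0.302 and 0.00874). CD28 had -2.14 between 6 and 2 h (adjusted p = 0.0787), which passed without replicate 3 of dCBP-30 at 6 h (-3.07, adjusted p = 0.0327), and CD47 had -1.04 between 24 and 2 h (adjusted p = 0.181), which passed without replicate 3 of DMSO at 2 h (-1.62, adjusted p = 0.0426).

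In total reads the change from 6 to 24 h was further down in SDC1, CD38, GPRC5D, TNFRSF13B and CD44 (16.6% of all genes) and up in SLAMF7, CD28 and FCRL5 (15.5% of all genes), FCRL5 from 0 reads and not without replicate 1 or 2 of dCBP-30 or replicate 3 of DMSO at 6 h (adjusted p = 0.051 to 0.0846). TNFRSF17 had -0.92 (adjusted p = 0.117), and -1.12 without replicate 1 of DMSO at 24 h (adjusted p = 0.0319). SDC1 and CD38 thus moved in opposite directions in the 2 measures, with new RNA less reduced at 24 h than at 6 h and total RNA more reduced. For CD38 the step in total reads did not pass without TMM factors (-0.32, edgeR adjusted p = 0.195). It also did not pass without some single libraries (edgeR adjusted p up to 0.124).

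In DMSO 8 of the 9 members tested were labelled less than the median gene, and CD28 more. Pooled over the 3 DMSO libraries at 2 h, CD28 had the highest share at 10.1%, above 53.9% of the genes tested, whose median was 9.27%. CD38 had 6.45%, SLAMF7 6.22%, TNFRSF17 5.91%, CD44 5.23% and SDC1 4.71%, which lay between the 23.9th and the 34.9th percentile, and neighbours in this order did not differ beyond their SD. TNFRSF13B had 3.07%, GPRC5D 2.77% and CD47 2.52%. Reads of GPRC5D and TNFRSF13B covered 13.9 and 15.5 T each on average, where the median gene had 24.9. Counted per T, 1.00% of T positions of CD28 and 0.147% of those of CD47 were converted, the latter above 5.11% of the genes. The pentamer ATTTA occurred 4.53 times per kilobase in the CD47 UTR, more than in 91.3% of the genes. It occurred 3 times per kilobase in the CD28 UTR and not at all in the UTRs of TNFRSF17, TNFRSF13B, SDC1 and GPRC5D.

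By the Euclidean distance between their log2 changes in T>C reads at 2, 6 and 24 h, 3 points that share 1 fit, no member was the nearest gene of another. SDC1 and CD38 were each other's nearest member, at a distance of 1.40. The nearest of the 10086 genes was SPRY1 for TNFRSF17 (0.477), UGT2B17 for SDC1 (0.325), CABLES1 for CD38 (0.370), TMPRSS2 for SLAMF7 (0.268) and FGF2 for CD28 (1.01). For TNFRSF13B it was IRF4 (0.612), the plasma cell transcription factor, for CD44 HES6 (0.365), for GPRC5D AXIN2 (0.337) and for CD47 EXOSC10 (0.0548).

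A further 47 surface genes of B cells and plasma cells were looked up beside the members. Of the 29 tested, 13 fell and 0 rose in T>C reads at 2 h, 15 fell and 0 rose at 6 h, and 16 fell and 1 rose at 24 h, with medians of -1.09, -1.84 and -1.72 against 0.05, -0.27 and -0.69 over all genes. Of all 10086 genes tested, 7.14%, 17.1% and 31.2% fell in T>C reads, and 167, 238 and 219 genes rose. In total reads, of 36 tested, 5, 11 and 13 fell and 0, 1 and 2 rose at the 3 times. Of all 12272 genes tested, 1.25%, 8.67% and 16.1% fell in total reads, and 57, 917 and 1841 genes rose. The chemokine receptor CCR1 went from 108 ± 14.3 to 2.45 ± 1.33 T>C RPM at 2 h (SD, n = 3 each), a log2 change of -5.48, and its total reads were already lower at 2 h (-1.53). The chemokine receptor CXCR4 gave -5.01, -4.75 and -5.54 at 2, 6 and 24 h, and CD48, a ligand of the receptor CD244, gave -3.12, -5.65 and -2.56. The interleukin-6 receptor IL6R gave -2.21, -4.13 and -2.30, and the chemokine receptor CCR10 -2.13, -1.39 and -5.17, of which the 6 h value did not pass (edgeR adjusted p = 0.127). CCR1, CD48 and IL6R had their lowest estimates at 6 h, as did TNFRSF17, TNFRSF13B, SDC1, CD38, SLAMF7 and CD28. CXCR4 and CCR10 had theirs at 24 h, as did GPRC5D, CD44 and CD47.

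The ligands, partner receptors, shedding enzymes and adaptors of the members formed a second list. Of 17 of 24 such genes tested, 1, 3 and 5 fell and 0, 0 and 1 rose in T>C reads at 2, 6 and 24 h, with medians of 0.24, -0.22 and -0.20, while of all genes 7.14%, 17.1% and 31.2% fell. TNFSF13, which encodes the ligand APRIL of BCMA and TACI, rose at 24 h by 1.98 ± 0.75 (edgeR adjusted p = 0.028), from 0.940 ± 0.785 to 3.72 ± 0.424 T>C RPM. At 24 h SIRPA, the receptor of CD47, gave -2.72 and QPCTL, the enzyme that modifies CD47 for binding by SIRPA, -3.18 (edgeR adjusted p = 7.30e-05 and 0.04). TRAF2 and TRAF3, adaptors of TNF receptors, gave -2.33 and -1.34 at 24 h (edgeR adjusted p = 6.09e-06 and 0.00647).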

How the data were processed

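MM1.S cells were profiled by SLAM-seq with 3′ end libraries. The authors trimmed the reads with Trim Galore, ran the Slamdunk workflow on UTRs of hg38 and collapsed the result per transcript. The deposited values used here are raw counts, the reads and T>C reads of each transcript. Transcripts were matched to genes through GENCODE 44 (91.4% of 97466 rows), and the transcript with the most reads stood for its gene. T>C reads, total reads and the odds of a T>C read were fitted over all 18 labelled libraries with edgeR 4.0.16 in R 4.3.3 (filterByExpr, robust quasi-likelihood test, TMM factors from total reads also for T>C reads, Benjamini-Hochberg adjustment over all genes tested). Genes were called at an adjusted p under 0.05 and, for T>C and total reads, a log2 change beyond 1. Differences between times and shares had no fold limit. The 95% intervals of log2 changes are the estimate ± the normal quantile times the SE. The fits were tested on simulated data. Scaling, filters, DESeq2 1.42.0, limma 3.58.1, background subtraction, summed transcripts and leaving out each library were tried as alternatives. The members and gene lists were chosen with earlier results of these data known. From each list up to 5 called genes were named, those with the largest T>C change whose higher group averaged 20 or more T>C reads, and beside each member the gene nearest by distance. Libraries of a group differed by more than sampling noise (chi-square per degree of freedom 8.36 to 47.5).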

Additional observations from a re-analysis of the deposited data

Results flagged for a closer look

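The change with dCBP-30 was tested for a difference between time points, and these 20 differences between log2 changes had an adjusted p under 0.05 in edgeR's quasi-likelihood test (FCRL5 is left out, since all its dCBP-30 libraries at 6 h were at 0).

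Between 6 and 2 h the change in T>C reads differed by -3.12 for TNFRSF17, -1.15 for SDC1, -2.21 for CD38 and -1.83 for CD44, all further down at 6 h. Between 24 and 2 h it differed by -2.78 for GPRC5D and -2.04 for CD44, and by 1.47 for SLAMF7 and 2.24 for CD28.

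Between 24 and 6 h, a comparison chosen after seeing the data, the change in T>C reads differed by 1.13 for SDC1, 2.88 for CD38, 1.70 for SLAMF7 and 4.38 for CD28, and by -3.64 for GPRC5D. In total reads it differed by -0.90 for SDC1, -0.53 for CD38, -2.14 for GPRC5D, -0.72 for TNFRSF13B and -1.46 for CD44, and by 1.84 for SLAMF7 and 2.06 for CD28.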

How the results depend on the processing

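The falls in T>C reads of TNFRSF17, TNFRSF13B, SDC1, CD38, SLAMF7, CD28 and CD44 at 2, 6 and 24 h kept their direction and their side of the threshold under every alternative run, but not their size: with the background subtracted, CD28 at 2 h moved from -4.33 to -7.54, TNFRSF13B at 2 h from -3.75 to -6.39 and CD38 at 6 h from -4.76 to -9.66. The number of members whose T>C change differed between 6 and 2 h was 2 in place of 4 with the background subtracted (CD38 lower, GPRC5D higher by 5.91), and the labelled share at 24 h was lower in 1 member in place of 2 with reads summed over transcripts or with limma. Leaving out 1 library gave 0 to 1 members changed in total reads at 2 h and 1 to 2 in labelled share at 24 h. The cause was not tested.

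With the background subtracted, the 6 against 2 h differences turned to 0.94 for SLAMF7, 1.2998 for TNFRSF13B and 0.64 for CD28, the 24 against 2 h differences to 0.034 for TNFRSF17, 1.46 for SDC1 and 1.75 for TNFRSF13B, and the 24 against 6 h difference of CD44 to 1.02. Scaling by T>C reads turned the 6 against 2 h differences of SLAMF7 and CD47 to 0.084 and 0.14, that of SDC1 between 24 and 2 h to 0.61 and that of CD44 between 24 and 6 h to 0.13. DESeq2 with size factors from T>C reads gave 0.13, 0.19, 0.69 and 0.17 for the same 4 and 0.052 for CD47 at 6 h. Without TMM factors the values were 0.038 for CD47 between 6 and 2 h, 0.39 for SDC1 between 24 and 2 h, 0.0035 for CD44 between 24 and 6 h and 0.36 for total CD47 reads at 24 h. With reads summed over transcripts the share of CD47 at 6 h was -0.18.

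Leaving out 1 library, T>C reads gave -0.54 to 0.42 for CD47 at 2 h, -0.59 to 0.077 for SLAMF7 and -0.75 to 0.22 for CD47 between 6 and 2 h, -0.23 to 0.18 for SDC1 between 24 and 2 h, and -0.95 to 1.09 for TNFRSF13B and -0.63 to 0.72 for CD44 between 24 and 6 h. The labelled share gave -0.37 to 0.50 and -0.21 to 0.26 for CD47 at 2 and 6 h, and at 24 h -0.57 to 0.68 for TNFRSF17, -0.28 to 0.075 for SDC1, -0.40 to 0.15 for CD38 and -1.87 to 0.060 for TNFRSF13B.

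Without TMM factors the median log2 change of total reads was 0.10, 0.35 and 0.58 at 2, 6 and 24 h, and at 24 h 1061 genes fell and 3689 rose in place of 1972 and 1841. Scaled by T>C reads, 1516 genes fell and 759 rose in T>C reads at 24 h in place of 3148 and 219.

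Replicate numbers did not pair the libraries: deviations of same-numbered libraries correlated at -0.06 to 0.02 in T>C reads and -0.18 to 0.04 in total reads over 9 pairs, and 1 and 3 of the 9 were highest with their own number. With the replicate number as a block, 8, 7 and 9 members fell in T>C reads and 0, 9 and 8 in total reads at 2, 6 and 24 h, as without it. Depth limits FCRL5 and the dCBP-30 values at 6 and 24 h, where a library held 0 T>C reads of CD28 and others 1 of TNFRSF17, TNFRSF13B or GPRC5D.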
